A study of Homo sapiens with 4 samples.

Results

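The genes described here are 52 members of the TGF-beta and BMP signalling pathways, taken by gene symbol from a table of 61806 genes. They comprise ligands, latent binding proteins, receptors, antagonists, SMAD proteins, feedback inhibitors, the ID genes and the matrix gene TGFBI. All 52 symbols were found in the table, each on a single row. RNA was sequenced from U118-MG, an established human glioma cell line whose genotype is labelled WT, grown in DMEM with fetal bovine serum. The SPNS2 group (2 libraries) had been infected with a lentivirus that carried SPNS2, a membrane exporter of the signalling lipid sphingosine 1-phosphate, in the vector pCDH-CMV-MCS-EF1-puro, in which a CMV promoter stands before the cloning site. The NC group (2 libraries) had been infected with the negative control vector. Whether each infected line was a pool or a clone and whether puromycin was applied is not stated in the labels. Nor do they tie the 2 libraries of each group to different cultures; the p-values therefore reflect the variation among these 4 libraries, some or all of which could be technical.

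In this signalling system a secreted dimer brings a pair of type II receptors together with a pair of type I receptors, and the activated type I kinase phosphorylates SMAD proteins. TGF-beta and activin ligands act mainly through SMAD2 and SMAD3, BMP and many GDF ligands mainly through SMAD1 and SMAD5, and SMAD4 joins both kinds of complex in the nucleus. TGF-beta is secreted in a latent form held by LTBP proteins in the matrix. Antagonists such as noggin and follistatin bind ligands outside the cell, and several inhibitors are themselves induced by the pathway. In glioma, TGF-beta is known for effects on invasion and immune suppression, and BMP signalling for promoting astroglial differentiation.

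The counts summed to 31353373 and 34125159 in the SPNS2 libraries and to 31513400 and 32992150 in the NC libraries. SPNS2 itself was at 240 and 246 CPM in the SPNS2 libraries, against 1.31 and 1.40 CPM in the NC libraries, so the labels matched the introduced gene. CPM here is the count scaled for library size with TMM factors. Of 10 glial markers, 1 was called higher and 2 lower: VIM at 6524 ± 428 CPM in SPNS2 cells and 4392 ± 497 CPM in NC cells, NES 1.78-fold lower and CHI3L1 2.77-fold lower (SD, n = 2 each). GFAP, S100B, SOX2, OLIG2 and AQP4 had 0 to 8 counts in any library. PTPRC and CD3E (immune), EPCAM and CDH1 (epithelial) and CDH5 (endothelial) had at most 10 counts, but other markers of these lists were called: CD68, KRT14 and VWF lower and PECAM1 higher. The summed immune list was 66.5 to 76.7 CPM in SPNS2 libraries and 111 to 130.1 CPM in NC libraries. The epithelial sum was 1.08 to 1.14 CPM in SPNS2 libraries and 3.57 to 4.06 CPM in NC libraries, the endothelial sum 6.43 to 6.83 CPM in SPNS2 libraries and 4.24 to 5.20 CPM in NC libraries. The neuronal sum was 8.32 to 13.1 CPM in SPNS2 libraries and 2.199 to 4.06 CPM in NC libraries, with SNAP25 called higher and RBFOX3 without counts. Of 6 fibroblast and mural markers, COL1A1 and PDGFRB were higher, DCN (32.8-fold) and LUM (10.6-fold) lower, and 2 not called. The sum of that list, most of it COL1A1 and COL1A2, was 3878 to 4045 CPM in SPNS2 libraries and 4829 to 4992 CPM in NC libraries. Their part in the results was not tested.

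Of 6 tested BMP and GDF ligand genes, 4 were lower and 1 higher in SPNS2 cells, and of 4 latent TGF-beta binding proteins 2 were lower and 1 higher. Antagonists and inhibitors moved both ways: NOG, PMEPA1, BAMBI and SMURF2 were higher, and FST, FSTL3, SMAD6 and SMAD7 lower. Of the 52 members, 46 passed the filter on low counts and were tested, 3 (BMP4, BMP7 and GREM1) were below it, and 3 (BMP5, INHBB and CHRD) had no counts in any library, which allows up to 0.0892 to 0.0975 CPM in a library (3 counts, counting error only). By edgeR's quasi-likelihood test, called at an adjusted p under 0.05 over all 17853 tested genes, 7 members rose, 16 fell and 23 were not called. Among all tested genes 23.4% were called, 12.1% higher and 11.3% lower. The members' shares were 15.2% higher and 34.8% lower. The members were chosen with earlier results of these data known, so these shares are a description. All 46 tested members had a mean of at least 1 CPM, as did 14397 of the 17853 tested genes. The median log2 fold change of the tested members was -0.21, against -0.01 for all tested genes. At least a 2-fold difference was found at 5 called members that rose and 12 that fell, and the background shares for these rules were 4.34% and 5.56%. The groups did not overlap at 34 of the 46 members, where 66% of all tested genes did not overlap. With any 1 library left out its group held a single library, and fewer genes were called over all tested genes too. Part of the 16 lower calls was lost each time. Of the 7 higher calls BMP2 alone was lost each time. SMAD5 gained calls in opposite directions, at a log2 fold change of 0.56 without SPNS2 replicate 1 and -0.63 without SPNS2 replicate 2. In bulk RNA, a change in all cells and a change in the share of cells that express a gene cannot be told apart.

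**Figure D1:**
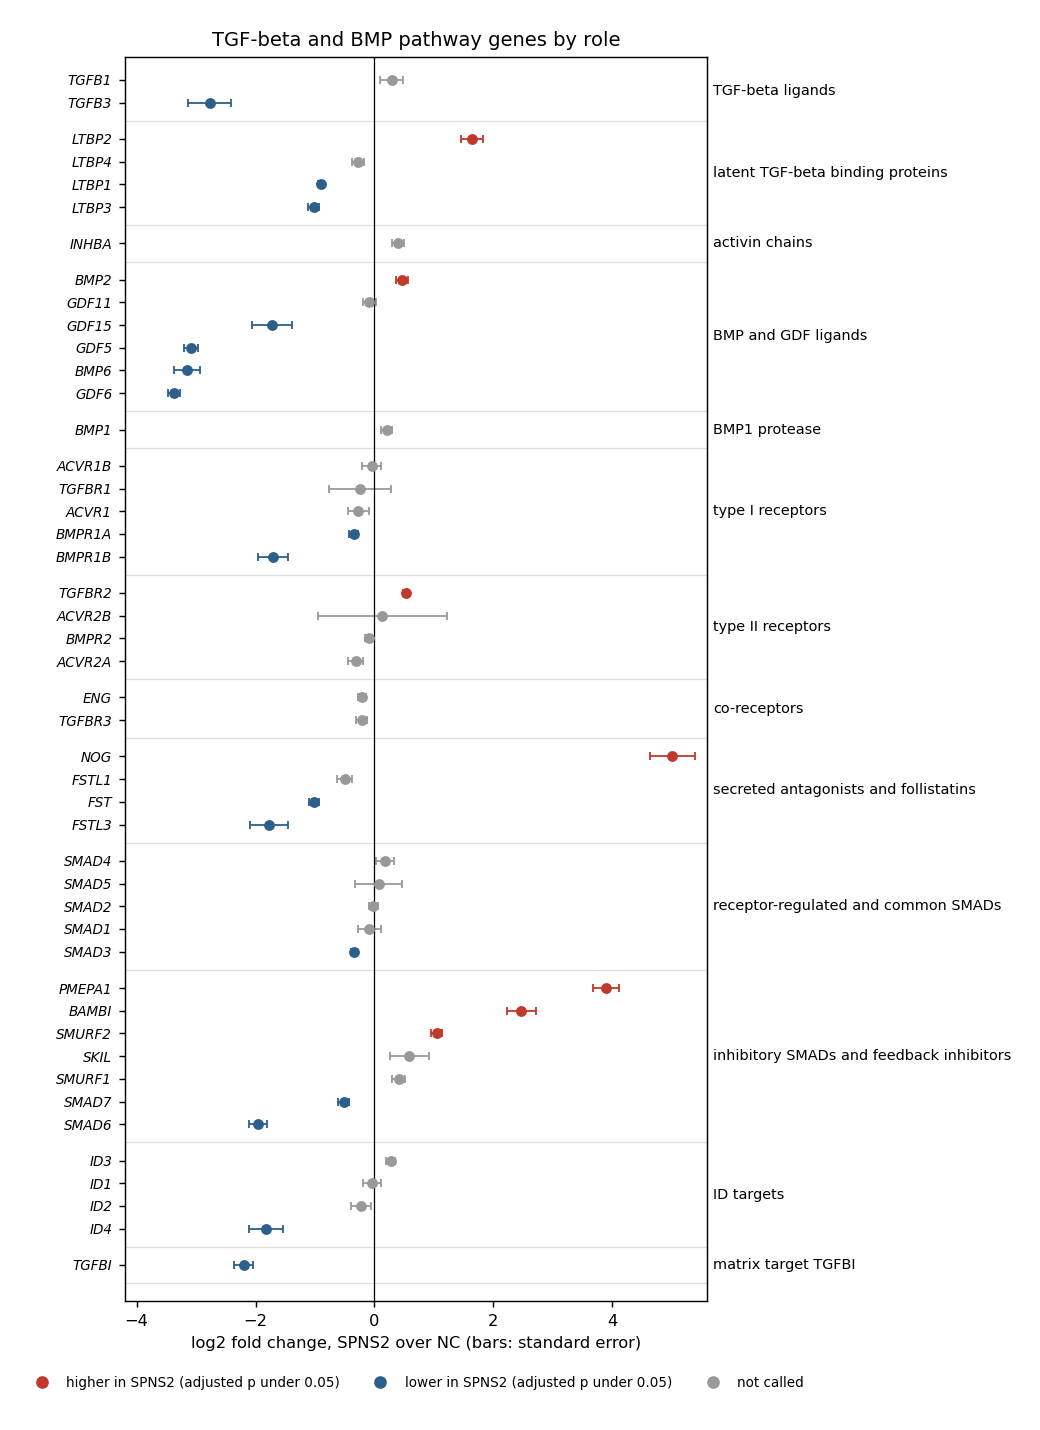
Log2 fold change of each tested member, SPNS2 over NC, grouped by role. Points are edgeR estimates and bars standard errors (2 libraries per group); red is called higher, blue called lower and grey not called. The extremes are NOG at 5.02 and GDF6 at -3.37.

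To show the sequence in front of genes that moved, the RefSeq promoter windows of 4 members are printed: the 2 that rose most and the 2 that fell most, of the called members past 2-fold that have a single window in the table (GRCh38.p14, 250 bases before to 50 after the start, written along the gene's strand). Capitals mark CAGAC or its complement GTCTG, the core that SMAD3 and SMAD4 bind, and GGCGCC, a GC-rich element known from BMP-responsive genes; the motifs can share a single base. BAMBI lies at chr10:28677271-28677570 (+), LTBP2 at chr14:74612188-74612487 (-), GDF5 at chr20:35454700-35454999 (-) and BMP6 at chr6:7725849-7726148 (+).
BAMBI: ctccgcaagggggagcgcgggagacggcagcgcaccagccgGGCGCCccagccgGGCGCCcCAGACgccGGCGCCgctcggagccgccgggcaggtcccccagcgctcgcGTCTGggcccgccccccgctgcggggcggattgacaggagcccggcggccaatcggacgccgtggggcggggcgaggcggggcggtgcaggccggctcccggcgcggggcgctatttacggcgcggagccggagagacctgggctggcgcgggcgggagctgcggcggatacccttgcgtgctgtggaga
LTBP2: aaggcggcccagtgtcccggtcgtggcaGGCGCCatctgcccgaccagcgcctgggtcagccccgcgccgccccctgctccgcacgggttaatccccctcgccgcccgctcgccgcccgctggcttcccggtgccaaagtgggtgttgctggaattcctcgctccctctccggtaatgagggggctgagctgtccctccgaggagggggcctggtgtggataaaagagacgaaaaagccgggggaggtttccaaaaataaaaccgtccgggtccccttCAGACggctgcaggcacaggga
GDF5: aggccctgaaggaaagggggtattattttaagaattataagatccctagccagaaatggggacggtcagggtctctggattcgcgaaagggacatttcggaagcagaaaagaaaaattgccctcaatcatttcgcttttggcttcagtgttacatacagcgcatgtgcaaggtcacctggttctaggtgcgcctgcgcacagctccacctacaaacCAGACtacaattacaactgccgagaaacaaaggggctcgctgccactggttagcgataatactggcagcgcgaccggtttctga
BMP6: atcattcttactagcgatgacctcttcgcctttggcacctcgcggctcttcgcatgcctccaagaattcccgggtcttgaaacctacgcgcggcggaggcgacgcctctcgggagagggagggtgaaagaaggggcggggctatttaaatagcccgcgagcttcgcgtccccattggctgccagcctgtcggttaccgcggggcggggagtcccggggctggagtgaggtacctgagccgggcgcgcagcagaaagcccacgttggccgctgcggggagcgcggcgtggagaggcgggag
The BAMBI window held 2 CAGAC and 3 GGCGCC matches, LTBP2 1 of each, GDF5 1 CAGAC, and in BMP6 these letters were not found. Among all 35116 promoter windows of the same length, 45.3% held CAGAC on either strand and 19.2% held GGCGCC. Among the 82 windows of the 47 matched members, 48.8% held CAGAC and 28% held GGCGCC. A match is a description of the letters and not a site.

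Of the TGF-beta ligands, TGFB3 fell and TGFB1 did not pass the test. TGFB1, the prototype ligand (ENSG00000105329, chromosome 19, 41301587 to 41353911 on hg38), was at 128 and 102 CPM in SPNS2 libraries and 80.1 and 108 CPM in NC libraries. The groups overlapped, with a log2 fold change of 0.29 (SE 0.19, adjusted p = 0.337). The exons of TGFB1 share 215 bases with HNRNPUL1 on the other strand, a gene with 12016 to 13977 counts. TGFB3 (chromosome 14, 75958099 to 75982991) was at 0.877 and 0.539 CPM in SPNS2 libraries, against 5.58 and 4.10 CPM in NC libraries. That is a 6.82-fold lower level in SPNS2 cells (log2 fold change -2.77, SE 0.36, adjusted p = 0.0125). The call was lost without NC replicate 1, where the log2 fold change was -2.53 with an adjusted p of 0.0555.

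The latent TGF-beta binding proteins, which hold the inactive ligand in the matrix, moved in both directions. LTBP1 (chromosome 2, 32946972 to 33399509), the most abundant member per length in both groups, was at 772 and 778 CPM in SPNS2 libraries and 1509.95 and 1379.6 CPM in NC libraries. Its level was 1.86-fold lower in SPNS2 cells (log2 fold change -0.90, SE 0.058, adjusted p = 0.00285). LTBP3 (chromosome 11, 65538805 to 65558930) was at 67.8 and 59.6 CPM in SPNS2 libraries, against 132 and 127 CPM in NC libraries, 2.03-fold lower (adjusted p = 0.00475). The tested genes of 11q had a median of -0.39 on the log2 scale; after removal of the arm medians LTBP3 was still called at -0.63 (adjusted p = 0.0163). LTBP2 (chromosome 14, 74498170 to 74612378), which does not bind latent TGF-beta itself, went the other way: 22.6 and 17.3 CPM in SPNS2 libraries and 6.39 and 6.33 CPM in NC libraries, 3.14-fold higher in SPNS2 cells (log2 fold change 1.65, SE 0.18, adjusted p = 0.00867). LTBP4 was at 43.7 ± 3.83 CPM in SPNS2 cells and 52.98 ± 3.33 CPM in NC cells (SD, n = 2 each) and was not called (adjusted p = 0.132). Summed per kilobase of exon, the 4 genes gave 119 to 120.1 CPM per kilobase in SPNS2 libraries and 208 to 226 in NC libraries.

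The BMP and GDF ligands held the lowest fold changes of all members. GDF6 (ENSG00000156466, chromosome 8, 96142330 to 96160792), a ligand of skeletal and eye development, had 1018 and 939 counts in SPNS2 libraries and 9902 and 10950 counts in NC libraries. In scaled units these were 33.1 and 28.1 CPM in SPNS2 libraries and 309 and 325 CPM in NC libraries, a 10.4-fold lower level in SPNS2 cells (log2 fold change -3.37, SE 0.11, adjusted p = 0.000929). GDF5 (ENSG00000125965, chromosome 20, 35433347 to 35454746), a joint-forming ligand whose window is printed above, was at 9.19 and 7.97 CPM in SPNS2 libraries, against 75.8 and 70.6 CPM in NC libraries. It was 8.53-fold lower in SPNS2 cells (log2 fold change -3.09, SE 0.12, adjusted p = 0.00111). The antisense gene GDF5OS covers 35.2% of the GDF5 exon length and had 14 and 0 counts in SPNS2 libraries and 104 and 100 in NC libraries; the strand setting of the counting is not given, so reads of the pair cannot be told apart.

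BMP6 (chromosome 6, 7726797 to 7881422), known for control of iron balance in liver, was at 1.10 and 1.38 CPM in SPNS2 libraries and 11.8 and 10.4 CPM in NC libraries, 8.93-fold lower (log2 fold change -3.16, SE 0.22, adjusted p = 0.0031). GDF15, a stress-induced and distant family member that signals through its own receptor in the brainstem, was at 1.62 and 0.959 CPM in SPNS2 libraries and 4.37 and 4.19 CPM in NC libraries. It was 3.31-fold lower (adjusted p = 0.03), a call that depended on NC replicate 1 (adjusted p = 0.106 with it left out), NC replicate 2 (0.0978) and SPNS2 replicate 2 (0.0653, log2 fold change -1.39). The groups did not overlap in any of these 4 called genes, nor in 66% of all tested genes. The median log2 fold change of the tested genes within 1 Mb was -0.26 around GDF6 (6 genes) and -0.05 around GDF5 (37 genes). It was -0.0048 around BMP6 (9 genes) and -0.19 around GDF15 (56 genes). Of these neighbours 0 were called higher and 2 lower around GDF6, and 4 and 4 around GDF5. Around BMP6 they were 0 and 1, and around GDF15 1 and 10.

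BMP2 (chromosome 20, 6767664 to 6780280), an inducer of bone, was the 1 ligand that rose: 43.1 and 39.6 CPM in SPNS2 libraries and 30.3 and 29.6 CPM in NC libraries, 1.38-fold higher (log2 fold change 0.46, SE 0.094, adjusted p = 0.0333). Its call was lost when any library was left out (adjusted p = 0.113, 0.12, 0.112 and 0.0724 without NC replicates 1 and 2 and SPNS2 replicates 1 and 2), against a fold of 1.2 (adjusted p = 0.103) and with the arm medians removed (log2 fold change 0.28, adjusted p = 0.114), 20p having a median of 0.18. GDF11, a regulator of axial patterning, was at 32.3 ± 3.06 CPM in SPNS2 cells and 34.3 ± 0.072 CPM in NC cells, with overlapping groups (adjusted p = 0.608). BMP4 had 3 and 0 counts in SPNS2 libraries and 3 and 4 in NC libraries. BMP7 had 3 and 0 counts in SPNS2 libraries and 8 and 24 in NC libraries, and neither was tested.

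The order of the member ligands differed between the groups when levels were set per kilobase of exon. TGFB2, which is not a member, is left out of this order. In SPNS2 libraries TGFB1 stood first at 39.5 and 31.4 CPM per kilobase, followed by BMP2 at 11.96 and 10.995 and GDF6 at 8.94 and 7.60. INHBA at 5.71 and 5.36 came next, above GDF11 at 3.48 and 3.98 and GDF5 at 3.47 and 3.01, and the ranges of GDF11 and GDF5 adjoined. In NC libraries GDF6 stood first at 83.5 and 87.9 CPM per kilobase, followed by TGFB1 at 24.7 and 33.3 and GDF5 at 28.6 and 26.7, whose ranges overlapped. BMP2 at 8.40 and 8.23 was next there, and INHBA (4.45 and 3.97), BMP6 (4.25 and 3.75) and GDF11 (3.96 and 3.97) lay close together. The sum of the BMP and GDF ligands BMP2, BMP4, BMP5, BMP6, BMP7, GDF5 and GDF6 was 24.8 and 22.1 CPM per kilobase in SPNS2 libraries and 125 and 127 in NC libraries. GDF5 and GDF6 alone gave 12.4 and 10.6 of this in SPNS2 libraries and 112 and 115 in NC libraries. GDF11 and GDF15 are not in the sum.

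**Figure D2:**
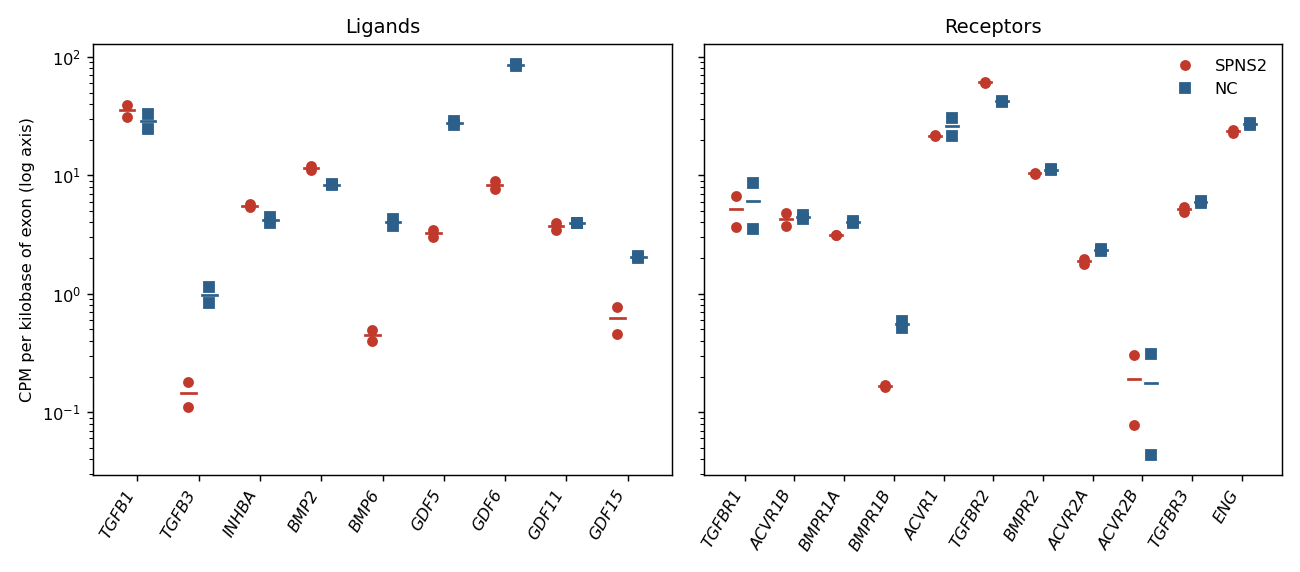
Levels of the tested member ligands (left) and receptors (right) in CPM per kilobase of exon on a log axis. There is 1 point per library, with SPNS2 as circles left of NC squares. Short lines are group means of 2 libraries. GDF6 lies near 8 in SPNS2 cells and near 86 in NC cells, whereas most receptors lie at similar heights in both groups.

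Activin is a dimer of INHBA or INHBB chains. INHBA was at 47.4 and 44.5 CPM in SPNS2 libraries and 37.0 and 33.0 CPM in NC libraries. The groups did not overlap, but the gene was not called (log2 fold change 0.39, SE 0.10, adjusted p = 0.0583; 0.0386 by DESeq2). BMP1, in spite of its name a protease that matures procollagens and cleaves the BMP antagonist chordin, was at 41.6 ± 3.05 CPM in SPNS2 cells and 36.02 ± 0.718 CPM in NC cells (adjusted p = 0.197).

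Most receptor genes were not called, and the 3 called ones differed in direction. TGFBR2 (ENSG00000163513, chromosome 3, 30606502 to 30694142), the type II receptor that binds TGF-beta, rose: 290.0 and 284 CPM in SPNS2 libraries and 201 and 196 CPM in NC libraries. That was 1.44-fold higher in SPNS2 cells (log2 fold change 0.53, SE 0.053, adjusted p = 0.00667). BMPR1B, a type I receptor with high affinity for GDF5, was at 1.04 and 1.08 CPM in SPNS2 libraries and 3.28 and 3.69 CPM in NC libraries, 3.28-fold lower (log2 fold change -1.71, SE 0.25, adjusted p = 0.0158). It lies on 4q, whose genes had a median of -0.32; with the arm medians removed BMPR1B was at -1.39 (adjusted p = 0.0292). Leaving out any library ended its call (adjusted p = 0.0619, 0.0761, 0.062 and 0.0603 without NC replicates 1 and 2 and SPNS2 replicates 1 and 2).

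BMPR1A, the widely expressed BMP type I receptor, was at 35.99 and 36.03 CPM in SPNS2 libraries and 45.1 and 46.7 CPM in NC libraries, 1.27-fold lower (log2 fold change -0.35, SE 0.081, adjusted p = 0.0447). The call was lost without any 1 library (adjusted p 0.132 and 0.153 without NC replicates 1 and 2, 0.153 and 0.137 without SPNS2 replicates 1 and 2), by DESeq2 (0.0524), without the filter on low counts (0.0737), against a fold of 1.2 (0.224) and with the median of 10q, -0.24, removed (log2 fold change -0.11, adjusted p = 0.387). ACVR1, a type I receptor for BMPs, was at 86.7 and 85.1 CPM in SPNS2 libraries and 85.9 and 121 CPM in NC libraries (adjusted p = 0.335). BMPR2, the BMP type II receptor, was at 123.02 and 124.26 CPM in SPNS2 libraries and 134 and 131 CPM in NC libraries (log2 fold change -0.10, SE 0.056, adjusted p = 0.276). The activin receptors ACVR1B (24.4 ± 4.34 CPM in SPNS2 cells and 25.2 ± 1.46 CPM in NC cells) and ACVR2A (12.7 ± 0.921 CPM in SPNS2 cells and 15.8 ± 0.47 CPM in NC cells) were not called, with adjusted p of 0.867 and 0.156.

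The libraries of a group disagreed at the other 2 receptors. TGFBR1, the type I receptor for TGF-beta, was at 45.5 and 25.1 CPM in SPNS2 libraries and 59.5 and 24.2 CPM in NC libraries, so that the spread within NC, 2.46-fold, exceeded the difference between groups (log2 fold change -0.24, SE 0.52, adjusted p = 0.776). ACVR2B, an activin type II receptor, was at 1.23 and 4.83 CPM in SPNS2 libraries and 4.87 and 0.684 CPM in NC libraries (adjusted p = 0.943). With SMAD5, these were the 3 of 46 tested members whose libraries differed by more than 2-fold within a group, 6.52%, against 8.72% of the 14397 genes whose mean reached 1 CPM. The co-receptors TGFBR3 (betaglycan) and ENG (endoglin) were lower in both SPNS2 libraries than in either NC library but were not called: TGFBR3 was at 42.7 and 47.0 CPM in SPNS2 libraries and 51.0 and 53.1 CPM in NC libraries (adjusted p = 0.16), ENG at 95.5 and 89.5 CPM in SPNS2 libraries and 104 and 109 CPM in NC libraries (adjusted p = 0.109). Per kilobase of exon, the type I receptors summed to 36.5 and 32.1 in SPNS2 libraries and 38.9 and 43.2 in NC libraries, the type II receptors to 74.0 and 72.8 in SPNS2 libraries and 56.7 and 55.1 in NC libraries.

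Of 4 tested secreted antagonists and follistatins, NOG rose, FST and FSTL3 fell and FSTL1 was not called. NOG (ENSG00000183691, chromosome 17, 56593699 to 56595590), which binds BMPs and keeps them from their receptors, had 229 and 188 counts in SPNS2 libraries and 8 and 5 counts in NC libraries. Its level was 7.44 and 5.63 CPM in SPNS2 libraries, against 0.250 and 0.149 CPM in NC libraries, 32.3-fold higher in SPNS2 cells and the highest fold change of all tested members (log2 fold change 5.02, SE 0.37, adjusted p = 0.00355). Of the 13 tested genes within 1 Mb, 0 were called higher and 1 lower. FST (chromosome 5, 53480409 to 53487134), follistatin, which neutralises activins, was at 112 and 105 CPM in SPNS2 libraries and 229 and 209 CPM in NC libraries, 2.02-fold lower (log2 fold change -1.02, SE 0.078, adjusted p = 0.00388). It lies on 5q, where the median of all tested genes was 0.43, and with the arm medians removed it was at -1.45.

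FSTL3, a follistatin-like binder of activins, was at 3.57 and 6.44 CPM in SPNS2 libraries and 18.4 and 16.02 CPM in NC libraries, 3.43-fold lower (log2 fold change -1.78, SE 0.32, adjusted p = 0.0256). Leaving out NC replicate 1 or NC replicate 2 ended that call (adjusted p = 0.0918 or 0.0775). FSTL1, an abundant secreted glycoprotein, was at 871 and 752 CPM in SPNS2 libraries and 1271 and 1026 CPM in NC libraries and was not called (log2 fold change -0.50, SE 0.13, adjusted p = 0.0605), but passed when scaled by library totals (0.0469) or upper quartiles (0.0474) and in DESeq2 (0.00819). GREM1, gremlin, had 5 and 0 counts in SPNS2 libraries and 0 and 14 in NC libraries.

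**Figure D3:**
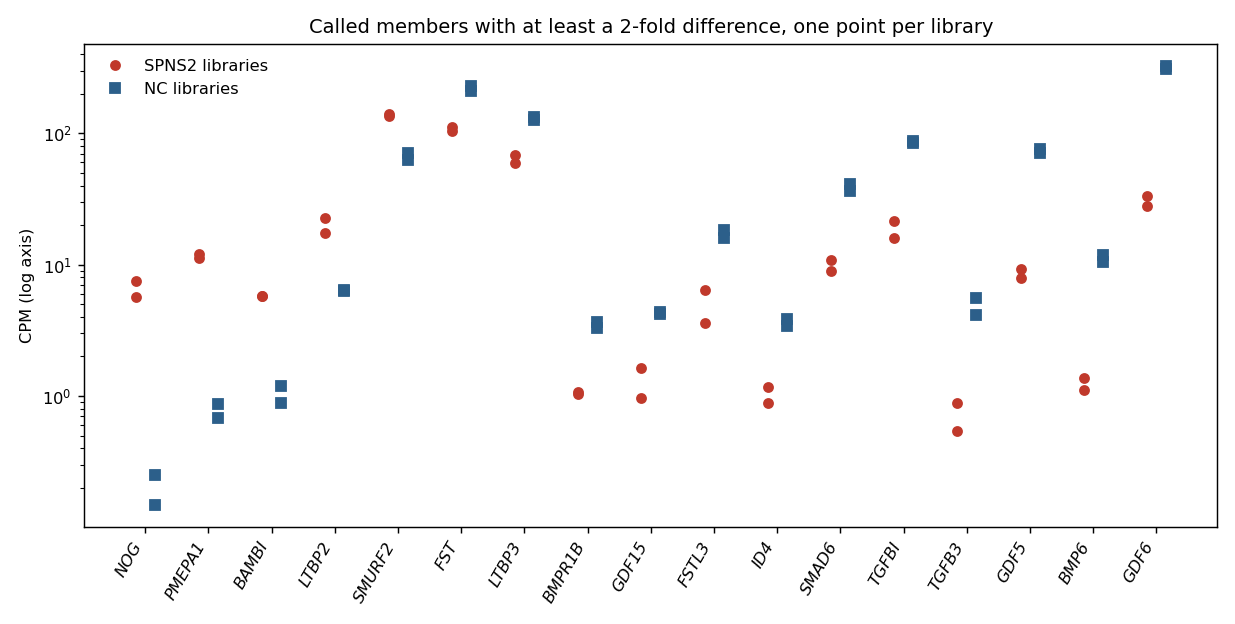
CPM on a log axis in each library for the called members with at least a 2-fold difference, ordered by log2 fold change; red circles are SPNS2 libraries and blue squares NC libraries. In each of these 17 genes the SPNS2 and NC libraries do not overlap, which picking genes by call and fold favours. Of all tested genes, 66% did not overlap.

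Most SMAD genes that carry the signal were not called. SMAD3 (chromosome 15, 67063763 to 67195195), an effector of TGF-beta and activin receptors, was the 1 of 5 that was called: 196 and 194 CPM in SPNS2 libraries and 242 and 253 CPM in NC libraries, 1.27-fold lower (log2 fold change -0.34, SE 0.055, adjusted p = 0.02). Its call was lost when any library was left out (adjusted p = 0.0677, 0.0927, 0.0754 and 0.0773 without NC replicates 1 and 2 and SPNS2 replicates 1 and 2), against a fold of 1.2 (0.15) and with the median of 15q, -0.21, removed (log2 fold change -0.13, adjusted p = 0.184). SMAD2, its partner, was at 93.0 and 102 CPM in SPNS2 libraries and 97.1 and 100.2 CPM in NC libraries (log2 fold change -0.02, SE 0.074, adjusted p = 0.88). The common SMAD4 was at 85.5 and 75.5 CPM in SPNS2 libraries and 80.6 and 61.9 CPM in NC libraries (adjusted p = 0.465), and the BMP effector SMAD1 at 11.8 ± 1.66 CPM in SPNS2 cells and 12.5 ± 2.03 CPM in NC cells (adjusted p = 0.796). SMAD5, also a BMP effector, was at 60.9 and 138 CPM in SPNS2 libraries, on either side of the 97.4 and 91.1 CPM in NC libraries (adjusted p = 0.911). Without SPNS2 replicate 1 SMAD5 was called higher (0.56, adjusted p = 0.042), and without SPNS2 replicate 2 called lower (-0.63, adjusted p = 0.0438).

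The inhibitors that the pathway induces in many cell types moved in opposite directions, with 3 of 7 higher, 2 lower and 2 not called. Their shares were 42.9% higher and 28.6% lower, against 12.1% and 11.3% of all tested genes. PMEPA1 (ENSG00000124225, chromosome 20, 57648392 to 57711536), a membrane protein that sequesters SMAD2 and SMAD3 and is a known TGF-beta target, was at 12.1 and 11.3 CPM in SPNS2 libraries and 0.873 and 0.684 CPM in NC libraries. It was 14.9-fold higher in SPNS2 cells (log2 fold change 3.90, SE 0.22, adjusted p = 0.00224). The 10 tested genes within 1 Mb had a median of 0.68, with 3 called higher and 0 lower. BAMBI (ENSG00000095739, chromosome 10, 28677342 to 28682939), a decoy receptor without a kinase domain whose window is printed above, was at 5.78 and 5.78 CPM in SPNS2 libraries and 1.19 and 0.892 CPM in NC libraries, 5.56-fold higher (log2 fold change 2.47, SE 0.25, adjusted p = 0.00691). SMURF2, a ubiquitin ligase that marks SMADs and receptors for degradation, was at 135 and 141 CPM in SPNS2 libraries and 62.3 and 71.0 CPM in NC libraries, 2.07-fold higher (log2 fold change 1.05, SE 0.089, adjusted p = 0.00462).

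Both inhibitory SMADs were lower. SMAD6 (ENSG00000137834, chromosome 15, 66702228 to 66782848), which acts mainly on the BMP branch, was at 10.9 and 8.96 CPM in SPNS2 libraries and 36.2 and 40.9 CPM in NC libraries, 3.89-fold lower (log2 fold change -1.96, SE 0.15, adjusted p = 0.00389). SMAD7, which blocks both branches, was at 37.5 and 36.1 CPM in SPNS2 libraries and 50.3 and 54.9 CPM in NC libraries, 1.43-fold lower (log2 fold change -0.52, SE 0.089, adjusted p = 0.0233). The SMAD7 call was lost when any library was left out (adjusted p = 0.0622, 0.0898, 0.0824 and 0.0921 without NC replicates 1 and 2 and SPNS2 replicates 1 and 2), against a fold of 1.2 (0.0666) and with the arm medians removed (-0.39, adjusted p = 0.0512). The ubiquitin ligase SMURF1 was at 72.2 and 76.4 CPM in SPNS2 libraries and 60.6 and 51.3 CPM in NC libraries (adjusted p = 0.0596, and 0.0333 by DESeq2). Its exons share 735 bases with TRRAP on the other strand, a gene with 4087 to 5215 counts. TRRAP was itself called higher (log2 fold change 0.30, adjusted p = 0.0365). The strand setting of the counting is not given, so reads in the shared bases cannot be told apart. SKIL, a nuclear repressor of SMAD complexes, was at 28.9 and 53.2 CPM in SPNS2 libraries and 23.8 and 30.9 CPM in NC libraries, with overlapping groups (adjusted p = 0.272).

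The ID genes, which encode inhibitors of basic helix-loop-helix factors and are direct targets of BMP signalling, were mostly not called. ID1 was at 129 and 114 CPM in SPNS2 libraries and 109 and 142 CPM in NC libraries, so the SPNS2 values lay within the range of the NC values (log2 fold change -0.04, SE 0.15, adjusted p = 0.871). ID3 was at 74.5 and 72.7 CPM in SPNS2 libraries and 58.1 and 63.6 CPM in NC libraries (log2 fold change 0.27, SE 0.078, adjusted p = 0.0727), and ID2 at 12.1 and 11.4 CPM in SPNS2 libraries and 15.2 and 12.3 CPM in NC libraries (adjusted p = 0.375). ID4 was the 1 member of the family that was called, at 0.877 and 1.17 CPM in SPNS2 libraries and 3.84 and 3.42 CPM in NC libraries, 3.53-fold lower (log2 fold change -1.82, SE 0.28, adjusted p = 0.0181). Leaving out NC replicate 1, NC replicate 2 or SPNS2 replicate 1 ended its call (adjusted p = 0.0815, 0.066 or 0.0629). Summed per kilobase of exon, the 4 ID genes gave 152 and 139 in SPNS2 libraries and 129 and 157 in NC libraries.

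TGFBI (ENSG00000120708, chromosome 5, 136028895 to 136063818), a matrix adhesion protein named for its induction by TGF-beta, fell in SPNS2 cells. It was at 21.4 and 16.01 CPM in SPNS2 libraries and 88.0 and 83.9 CPM in NC libraries, 4.60-fold lower (log2 fold change -2.20, SE 0.16, adjusted p = 0.00359). With the 5q median of 0.43 removed it was at -2.63 (adjusted p = 0.00271). The 6 tested genes within 1 Mb of TGFBI had a median of -0.097, with 1 called higher and 0 lower. PMEPA1 and TGFBI, both known as TGF-beta targets, thus had log2 fold changes of opposite sign.

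A further 97 genes of the pathway were examined, of which 63 were tested. Of these, 13 were higher, 16 lower and 34 not called in SPNS2 cells, a median log2 fold change of -0.19. The shares were 20.6% higher and 25.4% lower, against 12.1% and 11.3% of all tested genes. These genes were listed with earlier results of these data known, so their counts are a description. Leaving out any 1 library reduced the 29 calls, as it did the calls over all tested genes. The ligand TGFB2 was at 13.7 and 14.03 CPM in SPNS2 libraries and 26.2 and 24.5 CPM in NC libraries (adjusted p = 0.0112), lost without any 1 library (adjusted p = 0.0588, 0.0507, 0.052 and 0.0515 without NC replicates 1 and 2 and SPNS2 replicates 1 and 2). The other 3 tested ligands of that list were not called. Of the receptors and co-receptors, NEO1, neogenin, a receptor of RGM proteins, was at 113 and 117 CPM in SPNS2 libraries and 11.3 and 14.3 CPM in NC libraries, 8.98-fold higher (adjusted p = 0.00138). RGMB, a BMP co-receptor that binds neogenin, was 1.99-fold higher (146 and 125 CPM in SPNS2 libraries, 69.1 and 67.3 CPM in NC libraries, adjusted p = 0.00624). ACVRL1, a type I receptor of endothelial cells, was at 0.877 and 0.899 CPM in SPNS2 libraries and 1.996 and 2.38 CPM in NC libraries (adjusted p = 0.0441), a call lost without any 1 library (adjusted p = 0.12 and 0.173 without NC replicates 1 and 2, 0.135 and 0.134 without SPNS2 replicates 1 and 2), by DESeq2 (0.0774) and by limma-voom (0.0518).

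Of the other antagonists and modulators, 1 of 9 tested genes rose, 4 fell and 4 were not called. That is 11.1% higher and 44.4% lower, against 12.1% and 11.3% of all tested genes. CRIM1, a membrane protein that binds BMPs, was 2.26-fold higher, at 219.7 and 224 CPM in SPNS2 libraries and 97.1 and 98.8 CPM in NC libraries (adjusted p = 0.00161). TWSG1 was 1.99-fold lower, at 100 and 111 CPM in SPNS2 libraries and 213 and 209 CPM in NC libraries (adjusted p = 0.00388). FSTL4 (0.325 and 0.120 CPM in SPNS2 libraries, 2.71 and 1.55 CPM in NC libraries) and CHRDL1, a chordin-like antagonist (5.49 and 5.72 CPM in SPNS2 libraries, 11.4 and 11.5 CPM in NC libraries), were lower with adjusted p of 0.0305 and 0.0145. Both calls were lost without any 1 library: FSTL4 had adjusted p of 0.127 and 0.0647 without NC replicates 1 and 2 and of 0.0518 and 0.087 without SPNS2 replicates 1 and 2, CHRDL1 of 0.0666, 0.0685, 0.0602 and 0.0568 in the same order. The log2 fold change of FSTL4 was -4.09 without SPNS2 replicate 1, against -3.25 with all libraries.

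Inside the cell, 3 of 14 tested genes rose, 2 fell and 9 were not called. These shares, 21.4% higher and 14.3% lower, compare with 12.1% and 11.3% of all tested genes. FKBP1A, which binds and silences type I receptors, was at 1328 and 916 CPM in SPNS2 libraries and 335 and 234 CPM in NC libraries, 3.94-fold higher (log2 fold change 1.98, SE 0.26, adjusted p = 0.0127). The ubiquitin ligases NEDD4L and WWP1 were 1.79- and 1.57-fold higher (adjusted p = 0.0118 and 0.018). TGFBRAP1, a receptor-associated protein, was 1.72-fold lower (adjusted p = 0.00503). NEDD4L was not called without NC replicate 1 (0.0585) or NC replicate 2 (0.0568), nor WWP1 without NC replicate 1 (0.0757), NC replicate 2 (0.0527) or SPNS2 replicate 2 (0.0698).

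Of the activators of latent TGF-beta, 3 of 9 tested genes rose, 2 fell and 4 were not called. That is 33.3% higher and 22.2% lower, against 12.1% and 11.3% of all tested genes. THBS1, thrombospondin 1, which can release TGF-beta from its latent complex, was at 1955 and 1972 CPM in SPNS2 libraries and 127 and 122 CPM in NC libraries, 15.8-fold higher. The metalloproteinases MMP14 and MMP2 were 1.57- and 1.31-fold higher (adjusted p = 0.0113 and 0.026), the MMP2 call being lost without NC replicate 1 (0.102) and NC replicate 2 (0.0763). ITGB8, the beta chain of an integrin that activates latent TGF-beta, was 2.196-fold lower, at 68.1 and 66.7 CPM in SPNS2 libraries and 154 and 142 CPM in NC libraries (adjusted p = 0.00266).

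Targets known from other cells did not move one way. Of 17 tested SMAD2/3 targets, 3 rose, 4 fell and 10 were not called. That is 17.6% higher and 23.5% lower, against 12.1% and 11.3% of all tested genes. SNAI2, a transcription factor of mesenchymal transition, was 4.06-fold higher (205 and 203 CPM in SPNS2 libraries, 50.2 and 50.3 CPM in NC libraries, adjusted p = 0.000877) and COL1A1 1.36-fold higher (adjusted p = 0.00475). COL3A1 was 9.20-fold lower (0.747 and 0.779 CPM in SPNS2 libraries, 7.39 and 6.72 CPM in NC libraries, adjusted p = 0.00304) and the metalloprotease ADAM12 2.003-fold lower (adjusted p = 0.00261). Of 6 tested BMP-SMAD targets, 1 rose, 2 fell and 3 were not called (16.7% higher and 33.3% lower). ATOH8, a helix-loop-helix factor, was 2.98-fold lower (13.5 and 13.4 CPM in SPNS2 libraries, 36.8 and 43.3 CPM in NC libraries, adjusted p = 0.00414). MSX1 was at 4.06 and 2.40 CPM in SPNS2 libraries and 9.08 and 10.7 CPM in NC libraries (adjusted p = 0.0298; 0.0811, 0.107 and 0.0569 without NC replicate 1, NC replicate 2 and SPNS2 replicate 2; 0.0534 with the arm medians removed). HEY1 was at 11.8 and 4.20 CPM in SPNS2 libraries and 1.497 and 1.63 CPM in NC libraries. Its adjusted p of 0.0481 became 0.118 with limma-voom, and its call was kept in only 4 of the 15 alternatives. Without SPNS2 replicate 1 its log2 fold change was 1.44 (adjusted p = 0.0661), against 2.35 with all libraries, and it was not called without NC replicate 1 (0.166) or NC replicate 2 (0.158).

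**Figure D4:**
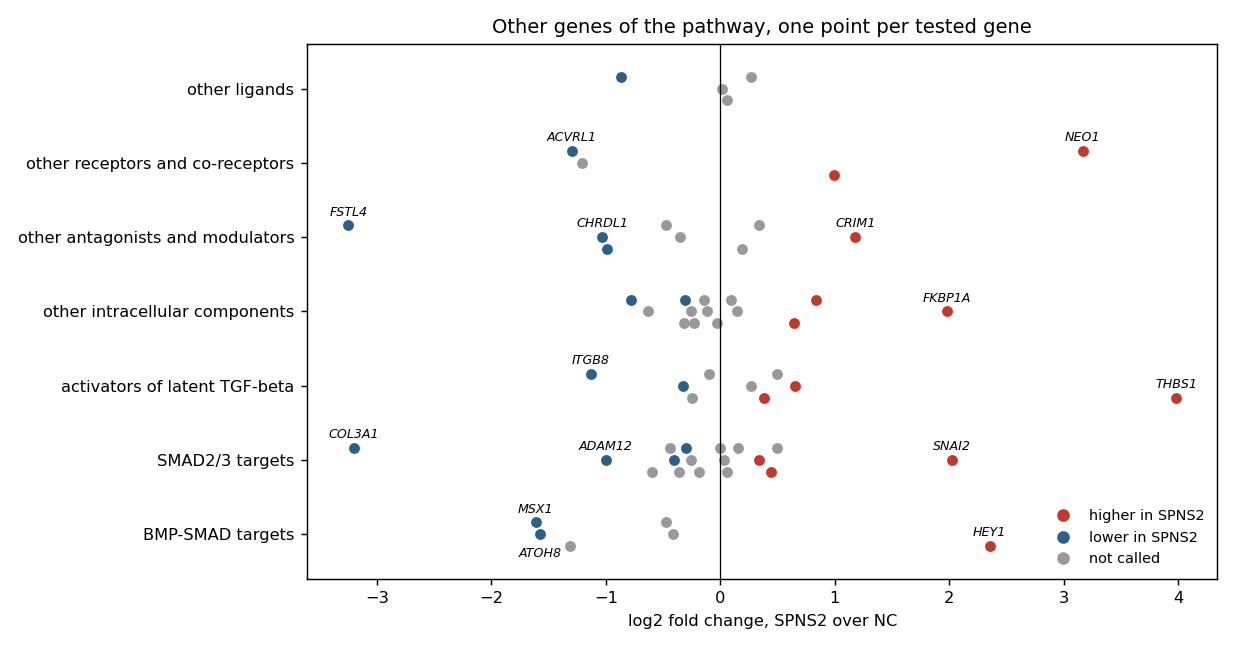
Log2 fold change, SPNS2 over NC, of the other pathway genes tested, 1 point per gene and without 1 gene that is not reported, by list; red is called higher, blue called lower and grey not called, and the plotted called genes with at least a 2-fold difference are named. THBS1 (3.98) and NEO1 (3.17) lie furthest to the right, FSTL4 (-3.25) and COL3A1 (-3.20) furthest to the left.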

How the data were processed

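RNA-seq of 4 U118-MG libraries was analysed from the raw counts per Ensembl gene deposited by the authors, whole numbers without normalization. The submitters' processing notes list the build hg38 and the tools featureCounts 0.3, HISAT2 2.2.1 and Trim Galore 0.6.9. Settings, annotation release and strand mode: not given in the sources used here. The table held 61806 genes and 1 row of annotation text, which was left out. Positions, exon lengths (the union of all exons) and overlaps came from GENCODE 29 on GRCh38, the assembly of hg38; all 52 members matched, and 17382 of the tested genes. Promoter windows came from RefSeq.

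Genes kept by filterByExpr (minimum count 10, minimum total 15) received TMM factors and entered edgeR's quasi-likelihood test (4.0.16, R 4.3.3; two-sided, SPNS2 over NC, group as the only term). An adjusted p with no tool beside it is that test's Benjamini-Hochberg value over all tested genes. The standard error is the log2 fold change divided by the square root of F. The test was checked on simulated counts. Levels are TMM-scaled CPM. Chi-square per degree of freedom between replicates was 37.3 in SPNS2 and 30.5 in NC, above sampling noise. Arm medians are medians of the log2 fold changes on each chromosome arm, divided at approximate centromere positions, and were removed from the SPNS2 libraries as an offset.

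The members, lists and alternatives were chosen with earlier results of these data known. Values in every library are given for called members with at least a 2-fold change and for the 2 most abundant members of each role; other members are summarised or given likewise. Of the other pathway genes, up to 4 called genes per list with a mean of at least 1 CPM are named; 1 such gene is counted but not reported here. Promoters on chromosome 8 are not printed. Promoters, local medians and sums per kilobase are descriptions added after the values were seen. Alternatives were DESeq2 1.42.0, limma-voom (limma 3.58.1), a robust fit, scaling by RLE, by upper quartile or by library totals alone, other filters, a replicate block, each library left out, glmTreat against a fold of 1.2 and removal of arm medians.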

Additional observations from a re-analysis of the deposited data

How the results depend on the processing

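Over the 15 alternatives, 6 to 9 members were called higher (7 in the report) and 8 to 17 lower (16 in the report), newly called members included; with a library left out the ranges were 6 to 7 and 8 to 12. Of the 23 called members, 14 were called in the same direction under each alternative, and none changed sign; 4 of the 23 uncalled members were called under at least 1. The other pathway genes called, 29 in all, were fewer with a library left out, as were the calls over all genes. The replicate numbers are shared by the groups, but the labels do not say that they pair samples, and the deviations of same-numbered libraries were correlated at -0.08 over genes. With the replicate block 10 members were lower (9 of the 16 and FSTL1), 19 other pathway genes were called, and the calls over all genes numbered 1976 in place of 4171; GDF15, BMP2, BMPR1A, BMPR1B, FSTL3, SMAD3, SMAD7 and ID4 were not called.

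Signs turned only at uncalled members. With the arm medians removed the log2 fold changes were 0.033 for GDF11, 0.076 for ACVR1B, 0.047 for BMPR2, 0.24 for SMAD1, 0.11 for SMAD2 and -0.36 for SMAD5, and SMAD5 was at -0.027 by limma-voom and -0.039 with the replicate block. With a library left out the ranges were -0.18 to 0.023 for GDF11, -0.75 to 0.54 for TGFBR1, -0.22 to 0.13 for ACVR1B, -1.16 to 2.14 for ACVR2B, -0.24 to 0.091 for SMAD1, -0.082 to 0.062 for SMAD2, -0.0046 to 0.38 for SMAD4, -0.63 to 0.56 for SMAD5 and -0.22 to 0.16 for ID1. The cause was not tested. Members with few counts (NOG in NC cells, BMP4, BMP7 and GREM1) are limited by depth.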
